A study of Mus musculus with 27 samples.

Results

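The genes described here act in G2 and mitosis, the stretch of the cell cycle in which a cell that has copied its DNA prepares to divide and then divides. They were followed in NIH/3T3 cells, an established line of mouse embryonic fibroblasts, on 27 Affymetrix mouse U74v2 arrays, with 1 array per sample. Of 58 listed genes, 50 were represented by at least 1 probe set (65 of the 12488 on the array, and 50 of the 8251 genes that these name). No probe set used here carried the symbols Ccnb1, Cdc25b, Bub1b, Cenpf, Tpx2, Hmmr, Espl1 or Ncapd2. All cultures had their serum lowered in steps, received 15 µM forskolin, which raises cyclic AMP, for 2 h in serum-free medium, and then stayed in serum-free medium. The labels give synchronising the cell cycle and the circadian oscillation as the purpose of this treatment. Single flasks were harvested when the pulse ended (0 h) and then at 6 h intervals until 48 h. With 3 experiments, which the labels call biological replicates, this gave 9 groups of 3 arrays that the labels tell apart by time alone. The 12 h samples of experiments 1 and 3 carry record numbers far from those of all other samples. Whether these were handled apart is not known here, and the steps to and from 12 h rest partly on them. Time after the pulse, time without serum and time in the flask ran together and cannot be told apart. No culture that had been spared the pulse was analysed here. In RNA from a whole flask, fewer cells in G2 and mitosis and less of these RNAs per cell cannot be told apart either.

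Entry into mitosis is driven by CDK1 bound to cyclin A or B, with Polo-like and Aurora kinases. Condensins then compact the chromosomes, kinesins and microtubule proteins build the spindle, and the spindle checkpoint holds back the anaphase-promoting complex until every chromosome is attached. The genes of these proteins are transcribed late in the cycle. The DREAM complex of pocket proteins, E2F4 and MuvB holds them down in resting cells, and MuvB with B-MYB and FOXM1 activates them in G2. Many of their promoters carry the cell cycle genes homology region (CHR), whose usual letters are TTTGAA, near CCAAT boxes bound by NF-Y.

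Values are log2 intensities after quantile normalization. A gene stands for its brightest probe set, and 38 of the 50 genes had a mean above the limit of 6.77 that the filter on dim probe sets set. Changes are given ± SE from limma with adjusted p-values over all 7453 probe sets kept, and a call means an adjusted p below 0.05. Fibroblast markers were present, with 12 of 12 above that limit against 11 of 35 markers of other cell types. The summed level of the fibroblast markers ran from 16.69 to 16.93 at 0 to 12 h and from 16.62 to 16.93 at 18 to 48 h (log2). The brightest markers weigh most in this sum, and single markers moved between these times. Lox fell by 0.64 ± 0.09, Col3a1 and Pdgfra rose by 0.55 ± 0.09 and 0.29 ± 0.05, and the others were not called. With the experiment as a block, S100a4 was also lower (−0.12, adjusted p = 0.0239) and Pdgfrb higher (0.30, adjusted p = 0.0154). The 3′ to 5′ ratio of the actin control ran from 1.15 to 1.73 in the early arrays and from 1.11 to 1.73 in the late ones. The experiments differed in level: the median of the 50 genes deviated from the mean over experiments by −0.52, 0.59 and −0.08 on average in experiments 1 to 3. Unless the block is named, the fit leaves these differences in its spread.

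Most of the genes were high at 0, 6 and 12 h and low from 18 h to 48 h, and the widest gap between neighbouring time points lay between 12 h and 18 h. The median of the 50 genes was 8.13, 8.46 and 8.0 at 0, 6 and 12 h of experiment 1 and lay between 6.64 and 7.08 from 18 h on. In experiment 2 it was 9.06, 9.09 and 8.86 and then between 7.85 and 8.41, and in experiment 3 it was 9.16, 9.10 and 8.49 and then between 6.92 and 7.84. Early and late medians did not overlap in any experiment. The late median of experiment 3 that lay highest was the one at 24 h.

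**Figure D1:**
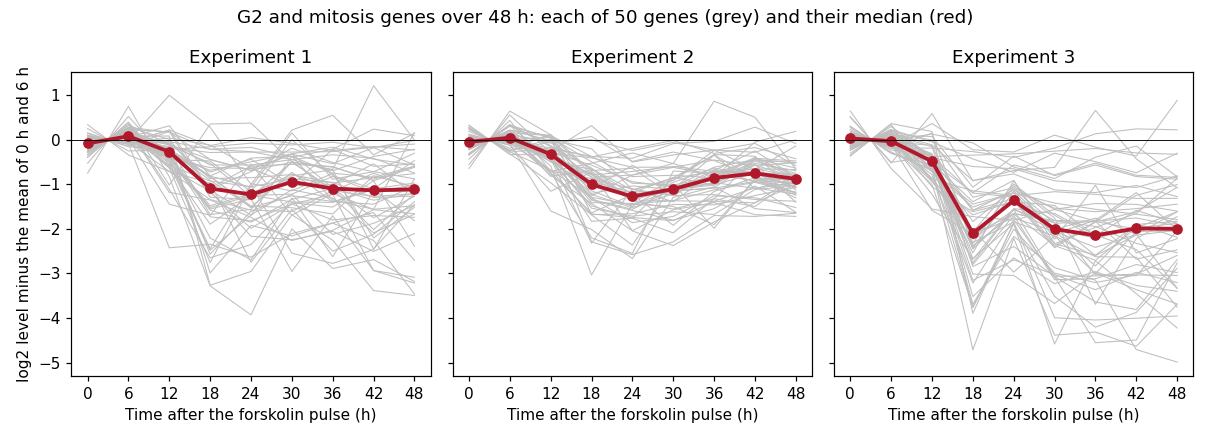
Log2 level of each of the 50 genes (grey lines) and their median (red) minus the mean of 0 h and 6 h, against time after the pulse in hours, 1 panel per experiment. The red line drops between 12 h and 18 h in every panel and stays below 0 afterwards, and it lies lowest in experiment 3.

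Between the mean of 18 to 48 h and that of 0 to 12 h, 34 of the 38 genes kept fell and none rose. By the same call 5.96% of all 7453 probe sets were lower. The median change of the 38 genes was −1.18, beside 0.01 over all probe sets. The cut between 12 h and 18 h was set with an earlier account of these data known, which placed the fall there. The counts and p-values of this comparison thus describe the size of the fall and are no independent test of its time. Since a gene high at 0 to 12 h can pass the filter on that level alone, all 50 genes were also tested without a filter. Then 40 fell and none rose, where 3.54% of all probe sets were lower. Of the 38 genes, 32 had a late mean that was itself above the limit, and 28 of these fell. In each experiment 48 of the 50 genes had the lower mean late. Every late array lay below every early array of its own experiment, in all 3 experiments, for 24 of the 38 genes, against 0.765% of all probe sets. The size differed between experiments, with a median change of the 50 genes of −1.06, −0.88 and −1.77 in experiments 1 to 3. With or without the block, SEs and p-values treat the arrays as independent. They do not measure how far the change differed between the 3 experiments. Mki67, with an SE of 0.44, changed by −1.54, −1.30 and −3.78. Without experiment 3 the number called was 7 of 40, where 173 of 7453 probe sets were called in either direction, against 868 with all experiments. With the experiment as a block it was 36 of 38, where 11.9% of all probe sets were lower, and with the block and without experiment 3 it was 35 of 40.

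**Figure D2:**
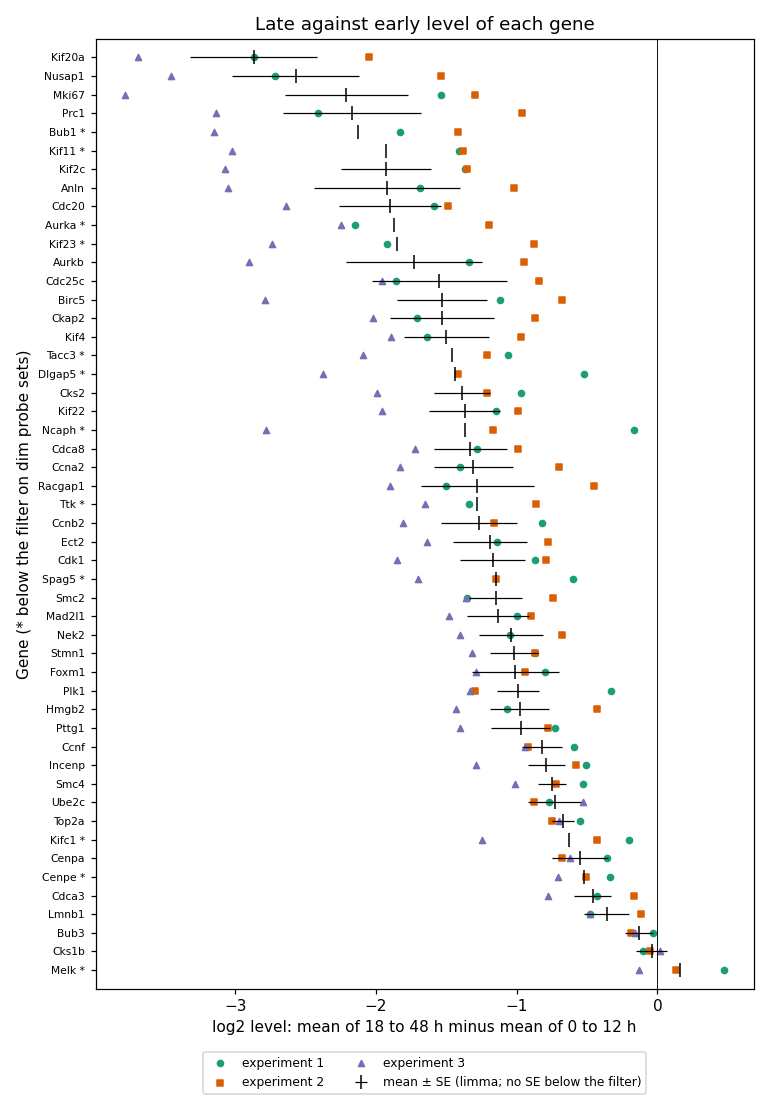
Mean log2 level of 18 to 48 h minus that of 0 to 12 h for each of the 50 genes, as coloured points per experiment and a black tick for the mean, with limma SE bars for the 38 genes kept (asterisks mark the other 12). Most genes lie left of 0 in all experiments, with experiment 3 usually farthest left, while Bub3, Cks1b and Melk lie near 0.

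The promoters of these genes are shown because their genes moved together and because the CHR is common among them. A window of 300 bases, from 250 before to 50 after the start site (RefSeq, GRCm38.p6), was at hand for 47 of the 58 genes. TTTGAA, on either strand, was in 34 of them, or 72.3%, against 20.2% of all 27025 genes with such windows. CCAAT, on either strand, was in 38, or 80.9%, against 41.1%, and both in 32, or 68.1%, against 7.97%. Of the genes of S phase and replication, 6 of 39 (15.4%) held TTTGAA and 26 of 39 (66.7%) CCAAT. Other genes of mitosis, outside the 58, held TTTGAA in 15 of 34 (44.1%) and CCAAT in 22 of 34 (64.7%). TTTGAA was in 6 of 19 RB, E2F and MuvB regulators (31.6%). It was in 1 of 12 (8.33%) both of the G1 cyclins and inhibitors and of the genes of the anaphase-promoting complex. The 120 bases before the start site follow for Cdc20, Prc1 and Ube2c, which had most of their fall still to come at 12 h, for Cdk1, Ccnf and Kif11, which had less of it to come on average, and for Cks1b, which did not pass. Capitals mark TTTGAA or its reverse complement TTCAAA and CCAAT or its reverse complement ATTGG, and no marked sites overlap. The windows lie at chr4:118437344-118437463 (- strand), chr7:80294356-80294475 (+ strand), chr2:164769809-164769928 (+ strand), chr10:69352913-69353032 (- strand), chr17:24251410-24251529 (- strand), chr19:37376262-37376381 (+ strand) and chr3:89418292-89418411 (- strand), each read 5′ to 3′ on the gene's strand.
Cdc20: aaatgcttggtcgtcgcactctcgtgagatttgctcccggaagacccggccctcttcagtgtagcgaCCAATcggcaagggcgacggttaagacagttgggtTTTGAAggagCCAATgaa
Prc1: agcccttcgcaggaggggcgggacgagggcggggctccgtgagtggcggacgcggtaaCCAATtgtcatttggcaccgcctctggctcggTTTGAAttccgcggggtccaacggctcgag
Ube2c: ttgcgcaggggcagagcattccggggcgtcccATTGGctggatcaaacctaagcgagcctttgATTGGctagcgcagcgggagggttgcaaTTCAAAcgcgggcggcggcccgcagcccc
Cdk1: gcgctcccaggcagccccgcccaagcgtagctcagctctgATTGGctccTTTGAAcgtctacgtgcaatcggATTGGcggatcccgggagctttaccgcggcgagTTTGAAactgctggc
Ccnf: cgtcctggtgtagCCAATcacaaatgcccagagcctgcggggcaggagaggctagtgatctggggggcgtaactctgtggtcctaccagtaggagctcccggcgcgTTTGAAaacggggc
Kif11: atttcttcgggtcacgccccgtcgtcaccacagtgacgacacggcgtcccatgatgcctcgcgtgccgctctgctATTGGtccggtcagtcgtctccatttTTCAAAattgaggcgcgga
Cks1b: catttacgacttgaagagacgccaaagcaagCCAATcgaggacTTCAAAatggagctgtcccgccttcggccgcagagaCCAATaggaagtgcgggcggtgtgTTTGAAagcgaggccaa

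Only windows with TTTGAA inside the bases printed could be shown, so its presence in all 7 follows from this choice. Cdk1 and Cks1b hold it at 2 places. The site nearest to the start site began 18 bases before it in Cdc20, 30 in Prc1, 29 in Ube2c, 15 in Cdk1, 14 in Ccnf, 19 in Kif11 and 17 in Cks1b. Of the 34 genes called lower late, 26 had a window, and 20 of these held TTTGAA. The others, Mad2l1, Nusap1, Birc5, Pttg1, Cks2 and Nek2, had none in the 300 bases. A match is a run of letters and not a bound site.

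Among the regulators of mitotic entry, 9 of the 10 kept fell. Ccna2, which encodes cyclin A2, ranged from 9.33 to 10.77 with a median of 10.20 in the 9 early arrays and from 7.03 to 9.75 with a median of 8.77 in the 18 late ones, a change of −1.31 ± 0.28 (adjusted p = 0.00248). Ccnb2, cyclin B2, read 8.94, 10.58 and 10.05 in experiments 1 to 3 at 12 h and 8.14, 9.71 and 8.27 at 18 h. Its early and late arrays did not overlap within any experiment, and it fell by 1.27 ± 0.27 (adjusted p = 0.00252). Cdk1, the kinase that both cyclins bind, read 9.96, 10.89 and 10.81 at 0 h, 9.47, 10.37 and 10.06 at 12 h and 9.12, 9.80 and 8.60 at 18 h. It was thus lower at each of these steps in each experiment, and the late change was −1.17 ± 0.23 (adjusted p = 0.00124). Plk1, the Polo-like kinase, fell by 0.99 ± 0.15 (adjusted p = 0.000127) in its brightest probe set, and its other probe sets gave −1.96 ± 0.26 (adjusted p = 1.66e-05) and −0.12 ± 0.25 (adjusted p = 0.851). Cdc25c, a phosphatase that activates CDK1, fell by 1.55 ± 0.48 (adjusted p = 0.0344), a call that was lost without the filter (adjusted p = 0.0524), and its dimmer probe set changed by −1.02. With the block Cdc25c had an adjusted p of 4.98e-05. Nek2, a centrosome kinase, fell by 1.04 ± 0.23. Ccnf, cyclin F, a substrate receptor of a ubiquitin ligase, fell by 0.82 ± 0.14. Cdca3, which is linked to degradation of the CDK1 inhibitor WEE1, fell by 0.46 ± 0.13. Aurka, Aurora kinase A, was below the filter, and without it fell by 1.87 ± 0.33 (adjusted p = 0.00079). Foxm1, the forkhead factor of this programme, read 9.05, 10.23 and 9.83 at 12 h and 7.92, 9.37 and 9.04 at 18 h and fell by 1.01 ± 0.31 (adjusted p = 0.0328). Without experiment 2 this call was lost (adjusted p = 0.142), while with the block and all experiments it stood (adjusted p = 8.88e-07).

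The CKS proteins are small subunits that bind CDKs, and their genes took different courses. Cks2 read 8.80, 9.54 and 9.09 at 12 h and 7.74, 8.44 and 7.22 at 18 h, and its late arrays, from 6.90 to 8.77, all lay below the lowest early array at 8.80. The change was −1.39 ± 0.20 (adjusted p = 4.27e-05). Cks1b ranged from 10.64 to 11.58 early and from 10.44 to 11.59 late. Its groups overlapped, and the change was −0.04 ± 0.11, with a 95% interval from −0.26 to 0.18. With the block Cks1b was lower at 6 h than at 0 h by 0.37 ± 0.11 (adjusted p = 0.0206) and higher at 36 to 48 h than at 18 to 30 h by 0.37 ± 0.06 (adjusted p = 0.00185), neither of which was called without the block. The difference between both genes was not tested. Melk, a kinase whose transcript is used as a mark of proliferation, was dim throughout, between 4.11 and 6.34, and did not pass without the filter (0.16 ± 0.23, adjusted p = 0.854).

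Of the spindle checkpoint genes, Mad2l1, which encodes the inhibitor MAD2, ranged from 8.14 to 9.83 early and from 7.18 to 9.11 late. It fell by 1.13 ± 0.22 (adjusted p = 0.00117). The checkpoint kinase genes Bub1 and Ttk were below the filter, and without it they fell by 2.13 ± 0.41 (adjusted p = 0.0017) and by 1.28 ± 0.32 (adjusted p = 0.0131). The fall of Bub1 rests on its brightest probe set, with a mean of 5.81, since its other probe sets, with means of 4.79 and 4.44, changed by −0.29 and −0.13. Bub3, a partner of BUB1 at the kinetochore, ranged from 10.57 to 11.38 early and from 10.61 to 11.34 late. It changed by −0.13 ± 0.10, with a 95% interval from −0.33 to 0.08 (adjusted p = 0.532), and a dim second probe set gave 0.04.

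All 3 measured genes of anaphase and mitotic exit fell. Cdc20, the activator of the anaphase-promoting complex, read 9.67, 11.54 and 10.82 at 12 h and 8.30, 10.20 and 8.38 at 18 h. The later value was lower in each experiment by between 1.34 and 2.44, and the late change was −1.90 ± 0.36 (adjusted p = 0.00097), a 3.74-fold lower level on this scale. Pttg1, securin, fell by 0.97 ± 0.21 (adjusted p = 0.00344). Ube2c, the ubiquitin-conjugating enzyme of the same complex, fell by 0.73 ± 0.19 (adjusted p = 0.0116), a call lost without experiment 2 (adjusted p = 0.17). With the block and all experiments Ube2c had an adjusted p of 8.37e-05. Its values at 18 h, 7.28, 7.01 and 7.85, were lower than those at 12 h by 0.16, 1.20 and 0.21, so that in experiments 1 and 3 most of its fall came later.

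The 4 genes of the chromosomal passenger complex, which corrects attachments at centromeres, all fell. Aurkb, its kinase Aurora B, fell by 1.73 ± 0.48 (adjusted p = 0.0188), Birc5, survivin, by 1.53 ± 0.32, Cdca8, borealin, by 1.33 ± 0.26 and Incenp, the scaffold, by 0.79 ± 0.13. A dimmer probe set of Incenp gave −0.32 ± 0.17 (adjusted p = 0.261). In experiment 2 Aurkb read 6.97 and 6.62 at 18 h and 24 h and between 8.42 and 8.72 from 30 h on, near its 12 h value of 8.44. In experiments 1 and 3 it stayed at or below 6.58 from 18 h on.

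Of the genes of the midzone and of cytokinesis, 6 of 6 kept fell, and Kif20a had the largest change of all 38 genes. Kif20a, a kinesin that carries the passenger complex to the midzone, read 8.41, 9.58 and 9.10 at 12 h and 5.06, 7.25 and 5.02 at 18 h. Its late arrays, from 4.83 to 7.89, lay below every early array, from 8.24 to 9.87, and the change was −2.87 ± 0.45 (adjusted p = 0.000119). A dimmer probe set of Kif20a changed by −1.85. Prc1, which bundles midzone microtubules, changed by −2.17 ± 0.49 (adjusted p = 0.0041) and Anln, anillin of the contractile ring, by −1.92 ± 0.52 (adjusted p = 0.0153). Kif4, a chromokinesin, fell by 1.5 ± 0.30. Racgap1 and Ect2, which switch on RhoA at the cleavage site, fell by 1.28 ± 0.40 and 1.19 ± 0.26, and the call of Racgap1 was lost without the filter (adjusted p = 0.06). With the block Racgap1 had an adjusted p of 0.000424. Kif23, the kinesin of the centralspindlin complex, was below the filter and without it fell by 1.85 ± 0.37 (adjusted p = 0.00232). The late means of Kif20a and Kif4, 6.09 and 6.29, lay below the limit of 6.77, as did those of Mki67, Nusap1, Aurkb and Hmgb2, so that these 6 genes passed the filter through their early level.

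Of the spindle genes 5 of 5 kept fell, and 9 of the 10 present without the filter. Nusap1, which binds spindle microtubules, read 7.70, 9.37 and 9.31 at 12 h and 5.25, 7.59 and 6.02 at 18 h, and changed by −2.57 ± 0.45 (adjusted p = 0.000387). A dimmer probe set of Nusap1 changed by −0.90. Kif2c, a kinesin that takes microtubules apart, changed by −1.93 ± 0.32 (adjusted p = 0.000288), and Ckap2 and Kif22 by −1.53 ± 0.37 and −1.37 ± 0.25. Stmn1, stathmin, which binds tubulin, fell by 1.02 ± 0.17, while its other probe set, below the filter with a mean of 4.89, gave 0.24. Below the filter, Kif11, the motor that pushes the spindle poles apart, fell by 1.93 ± 0.45 without it, and Tacc3, Dlgap5 and Spag5 fell by between 1.46 and 1.15. Kifc1 changed by −0.63 ± 0.22 and did not pass (adjusted p = 0.106).

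Of the genes of chromosome structure, Mki67, which encodes the Ki-67 antigen, read 7.90, 8.51 and 8.27 at 12 h and 5.97, 7.42 and 4.19 at 18 h. It fell by 2.21 ± 0.44 (adjusted p = 0.00164), but a second probe set of similar brightness gave 0.00 ± 0.16 (adjusted p = 0.999). The condensin subunits Smc2 and Smc4 fell by 1.15 ± 0.19 (adjusted p = 0.000187) and 0.75 ± 0.10 (adjusted p = 2.29e-05). Top2a, topoisomerase II alpha, had the smallest adjusted p of all members (6.33e-06), with a fall of 0.67 ± 0.08. Hmgb2, a chromatin protein, fell by 0.98 ± 0.21. Lmnb1, lamin B1, changed by −0.36 ± 0.16 (adjusted p = 0.183) and the centromere histone gene Cenpa by −0.55 ± 0.20 (adjusted p = 0.0867), and both fell with the block (adjusted p = 0.000854 and 0.00856). Ncaph and Cenpe, both dim, did not pass without the filter, and the probe sets of Ncaph differed, at −1.37 and −0.39.

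**Figure D3:**
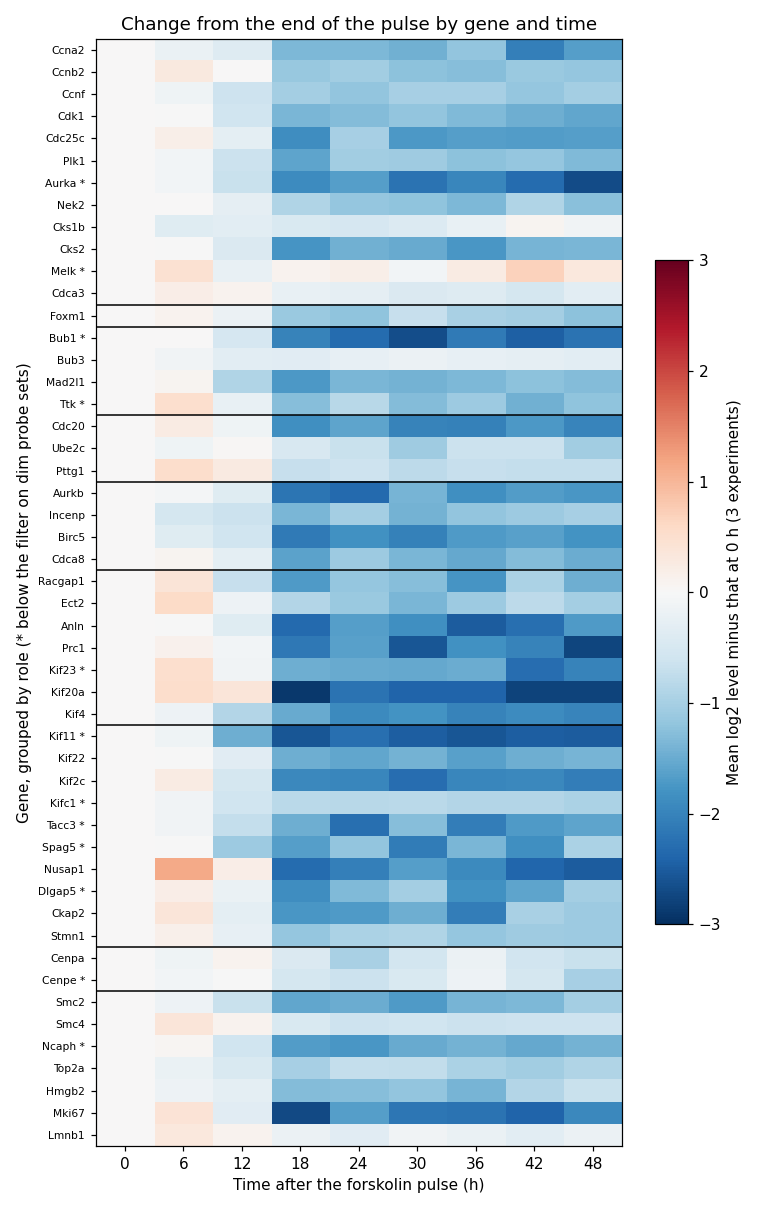
Mean log2 level minus that at 0 h (colour, 3 experiments) for the 50 genes (rows) at each time after the pulse in hours (columns), with black lines between the roles in the order mitotic entry, Foxm1, checkpoint, mitotic exit, passenger complex, midzone and cytokinesis, spindle, centromere, chromosome structure; asterisks mark genes below the filter. Colours are pale up to 12 h and blue from 18 h on in most rows, and the rows of Cks1b, Bub3, Melk, Cdca3 and Lmnb1 stay pale or nearly so.

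The timing of the fall was followed step by step. At 6 h against 0 h none of the 38 genes was called, where 2.39% of all probe sets were lower, none was lower at an unadjusted p below 0.05, and the median change was 0.05. Some were higher at 6 h without passing, with Nusap1 at 1.13 ± 0.89, Ect2 at 0.58 ± 0.52, and Kif20a and Pttg1 both at 0.52. With the block only Cks1b was called at 6 h, against 6.74% of all probe sets. At 12 h against 0 h none was called either, against 3.73% of all probe sets, with 5 at an unadjusted p below 0.05 and a median change of −0.30. With the block 5 were lower at 12 h, where 9.5% of all probe sets were. These were Mad2l1 at −0.90, Ccnf at −0.61, Top2a at −0.45, Cks1b at −0.32 and Bub3 at −0.31.

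From 6 h to 12 h no gene was called, with or without the block (0.0134% and 0.309% of all probe sets lower; 1 gene lower at an unadjusted p below 0.05), and the median change was −0.32. From 12 h to 18 h all 38 genes had a negative change, with a median of −0.95 beside 0.00 over all probe sets. At 18 h 34 of them were lower than at 12 h in each experiment, against 14.1% of all probe sets. None passed limma's adjusted threshold (0% of all probe sets lower; 19 of the genes at an unadjusted p below 0.05). With the block 5 fell, namely Kif20a by 3.25 ± 0.54 (adjusted p = 0.0281), Cdc20 by 1.72 ± 0.32, Cks2 by 1.34 ± 0.25, Cdca8 by 1.31 ± 0.25 and Pttg1 by 0.98 ± 0.20. They made up 5 of the 9 probe sets called lower, or 0.121% of all. With the block and any experiment left out, none passed.

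Against 0 h, 10 of 38 were lower at 18 h and 7 at 48 h, where 3.48% and 3.23% of all probe sets were, and none was higher. With the block 33 were lower at each of both times, against 9.19% and 9.07%. At 24, 30, 36 and 42 h the counts were 6, 7, 10 and 7 genes, where 2.84%, 2.87%, 3.48% and 3.1% of all probe sets were lower. With the block they were 31, 31, 32 and 28 genes, against 7.96%, 7.85%, 8.33% and 9.02%. Plk1 was lower by 1.59 ± 0.31 at 18 h and 1.32 ± 0.31 at 48 h, and Top2a by 0.99 ± 0.16 and 0.89 ± 0.16. No step of 6 h after 18 h had a called gene, with or without the block (0% of all probe sets lower in each, and none of the genes lower at an unadjusted p below 0.05), and their median changes lay between −0.06 and 0.08. Between 36 to 48 h and 18 to 30 h none of the 38 genes was lower, against 0.148% of all probe sets (none at an unadjusted p below 0.05), and the median change was −0.02. With the block the count stayed at 0 lower, against 2.09%, and Cks1b was higher. Over the 9 time points 12 of the 38 genes varied by the F test, against 7.3% of all probe sets, and 35 with the block, against 26.4%.

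The genes differed in how far they had fallen by 12 h. For the 38 of the 50 genes with a fall of at least 0.5 in each experiment, the part of the fall from 0 and 6 h to 24 to 48 h that was still to come at 12 h was computed, where 100% is the early level and 0% the late one. The median was 72.2%, 66.9% and 75.7% in experiments 1 to 3, and at 18 h the median over genes was −9.84%. The midpoint of the fall, read between the samples, lay between 12 h and 18 h in 88 of 114 cases, with a median of 13.6, 13.6 and 13.8 h. Kif20a had 103%, 102% and 105% to come at 12 h, Pttg1 102%, 107% and 99.4%, Ube2c 105%, 113% and 124%, and Prc1 95.8%, 102% and 89.6%. At 12 h these genes were thus near or above the mean of 0 h and 6 h in each experiment. This does not show that no fall had begun after 6 h. Pttg1 read 10.1, 11.16 and 10.91 at 6 h and was lower at 12 h in each experiment, at 9.83, 10.91 and 10.71. Ube2c was higher at 12 h than at 6 h in each, and for Kif20a and Prc1 the experiments differed. Ccnb2, Cdc20 and Nusap1 followed with means of 92.5% ± 14.5, 88.3% ± 10.3 and 89.2% ± 17.9 (SD, n = 3). Mad2l1 had 54.3%, 28.4% and 20.2% to come, Cdk1 47.4%, 48.2% and 67.6%, Incenp 60.5%, 49.9% and 59.6%, Top2a 61.1%, 49.1% and 54.8% and Kif4 65.4%, 59.8% and 45.0%. Each of these 5 genes lay below each of the 4 leading ones in every experiment at 12 h. Both groups were picked by this same measure, so their separation follows from the choice. Other genes also lay below the 4 in every experiment, among them Stmn1 (71.6%, 73.9% and 68.2%) and Cdc20 (78.8%, 99.2% and 86.9%). Spag5, below the filter, and Racgap1 had the lowest means, 15.7% ± 59 and 30.3% ± 39.4 (SD, n = 3), but differed widely between experiments. Kif4 was not early by its midpoint: it still had 52.8% and 46.7% to come at 18 h in experiments 1 and 2, and its midpoint had a mean of 15.4 h, against 14.7 h for Kif20a and 14.9 h for Prc1. In between the order was not fixed: Ccna2 had 114%, 25.7% and 83.0% to come, and Foxm1 147%, 72.0% and 52.7%. Spearman's rho of this measure across the 38 genes was 0.221, 0.172 and 0.462 between pairs of experiments. The differences in timing were not tested.

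**Figure D4:**
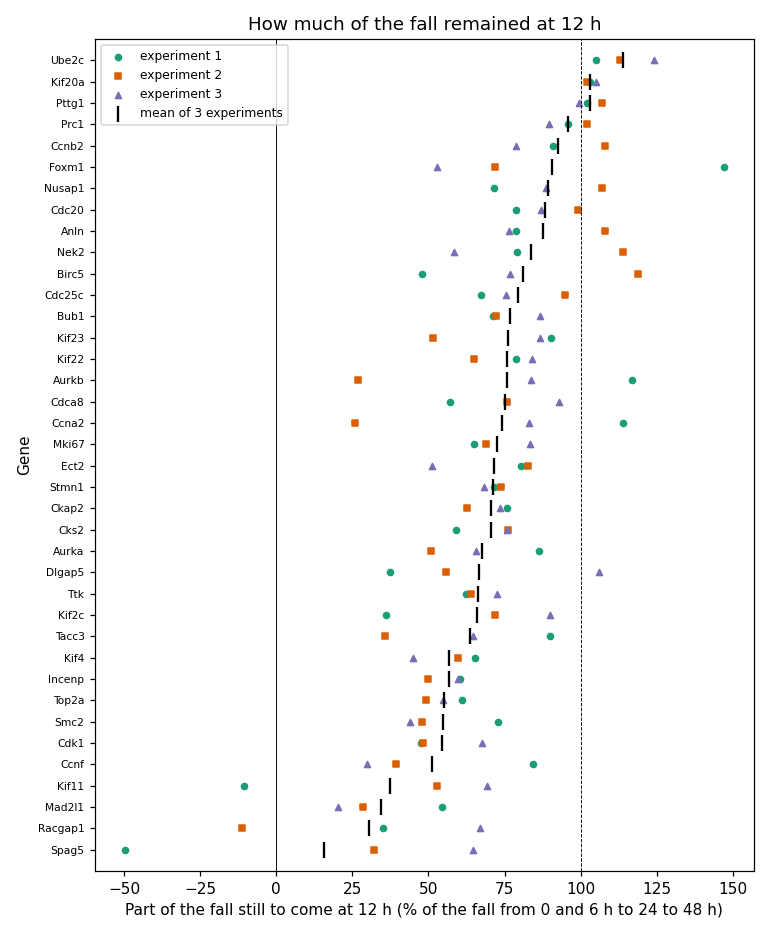
Part of the fall still to come at 12 h, in percent of the fall from 0 and 6 h to 24 to 48 h, for the 38 genes with a fall of at least 0.5 in each experiment; coloured points are experiments, black ticks their mean, and the dashed line is the early level. The points of Ube2c, Kif20a, Pttg1 and Prc1 lie at 89.6% or above. Those of Spag5, Racgap1, Mad2l1, Top2a, Incenp, Kif4 and Cdk1 lie at 67.6% or below, with those of Spag5 and Racgap1 spread widely.

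Genes whose products copy DNA act before G2. Of 36 kept genes of S phase and replication, 11 fell between 0 to 12 h and 18 to 48 h (5.96% of all probe sets), and 25 with the block (11.9%), and 11 were lower at 12 h than at 0 h (3.73%). Of the 43 with a probe set, 8 had a fall of at least 0.5 in each experiment. The median part of it to come at 12 h was 7.94%, beside 72% for the genes of G2 and mitosis, a difference that was not tested. The median for S phase is loose: the means of the 8 genes ran from −61.3% to 30%. Their SD over the experiments ran from 18.6 in Rrm1 to 194 in Brca1. Mcm5, a subunit of the replicative helicase, had means of 10.39, 9.65, 8.74 and 8.34 at 0, 6, 12 and 18 h, and Rrm1, a subunit of ribonucleotide reductase, 9.68, 9.27, 8.57 and 8.26. Tk1, thymidine kinase, had 9.40, 9.41, 8.91 and 7.53, with most of its difference after 12 h as in the genes of mitosis, and its late change of −1.34 ± 0.52 did not pass (adjusted p = 0.108; 0.000207 with the block). Of 19 further kept genes of mitosis, 5 fell, and 8 with the block. The 4 with the largest falls were Plk4, the kinase of centriole duplication, at −1.25 ± 0.24, Gtse1 at −1.25 ± 0.38, the importin gene Kpna2 at −0.92 ± 0.19 and the histone variant gene H2az1 at −0.75 ± 0.12. Of 9 kept subunits of the anaphase-promoting complex, Anapc1 fell by 0.17 ± 0.05 and Anapc11 rose by 0.36 ± 0.08, and 3 rose with the block. Over all 7453 probe sets, 424 were higher, and 948 with the block. Of 13 RB, E2F and MuvB regulators, 2 fell, Lin9, a MuvB subunit, by 0.62 ± 0.16 (adjusted p = 0.0088) and Rbl1, which encodes the pocket protein p107, by 0.52 ± 0.13 (adjusted p = 0.00996).

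Over the 27 arrays, as deviations from each experiment's mean, the profiles of the 38 kept genes correlated with their own median with r from 0.0604, for Cks1b, to 0.977. Among genes outside the list, the 10 with the highest r ran from 0.960 to 0.900. They were D17H6S56E-5, Psat1, Gpc1, Iqgap3, Ctsl, Plk4, Mrpl51, Pclaf, Txn1 and Pla2g4a. Their late changes, from −1.60 in D17H6S56E-5 to −0.32 in Mrpl51, follow from this choice. The points of these correlations share the arrays and their scaling.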

How the data were processed

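Per the labels' protocols, cRNA of each sample was hybridized to 1 mouse U74v2 GeneChip. The authors deposited intensities on a linear scale, 1 per probe set. How they were summarised from the probes is not given in the sources used. With 2% trimmed at each end, every array had a mean from 500.28 to 500.35, so the authors' values share 1 scale factor target. Array medians ran from 167 to 201. Detection calls were not used, precision is limited by how few arrays there are, and no pair of arrays was identical.

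Values were taken as log2(intensity + 12.1), the 10th percentile of all values, and quantile normalized, since array medians spread over 0.25. Fold changes refer to this scale, which shrinks those of dim probe sets. Controls and probe sets under the 40th percentile of mean value were left out, which kept 7453. Of 10855 probe sets with 1 symbol (396 had several), 10839 matched RefSeq by gene identifier. The tests used limma 3.58.1 (R 4.3.3), with 9 time means in 1 fit over 27 arrays, an intensity trend and Benjamini-Hochberg adjustment. In simulated data, late falls of 0.5, 1 and 2 were called for 53.7%, 94% and 100% of the changed probe sets without the block. With it these were 86.6%, 94% and 100%. The simulated noise was independent and the fall was the same in every experiment, unlike in these data. In all 108 pairs of arrays from 1 experiment, the deviations from the group means were positively correlated (r from 0.135 to 0.642), and the labels number the experiments, so the numbers pair the samples. Blocked values or counts are given for results of the listed genes that the block changed, and for some others.

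Every listed gene could be named. Values per sample went to up to 4 genes per role with the largest late change, to those with the smallest and to those with a sequence shown. Other probe sets were named where the sign differed or the change did by over 0.5 (that of Incenp, and the gene Tk1, were chosen after their values were seen). Of the other lists, up to 4 called genes with the largest change were named, and the 10 genes with the profile most like the median. The members, the lists and the cut between 12 h and 18 h were chosen with earlier results of these data known. Alternatives changed scaling, pseudocount, filter, variance model, array weights, block, probe set and arrays.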

Additional observations from a re-analysis of the deposited data

How the results depend on the processing

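The fall from 0 to 12 h to 18 to 48 h was called for 34 of 38 genes, and for between 31 and 42 under the other settings that kept all experiments. Leaving out 1 experiment gave between 7 and 35, the fewest without experiment 3, where the sizes kept their sign but 27 genes no longer passed. With the replicate block as well, chosen after seeing the data, it was between 30 and 40. The other counts moved more. With the replicate block, 1 gene was lower at 6 h than at 0 h, 5 genes were lower at 12 h, 33 genes at 18 h and 33 genes at 48 h, 5 were lower at 18 h than at 12 h, and 35 varied over time. With array weights, 3 were lower at 12 h than at 0 h, 22 at 18 h and 22 at 48 h, and 28 varied over time. Without 1 experiment the counts ran from 0 to 1 at 12 h, 2 to 13 at 18 h and 1 to 9 at 48 h, and from 0 to 7 varied over time. The counts with array weights and with arrays left out stand here without the share over all probe sets. Calls over all probe sets moved as well, as given below for the late comparison, so these counts describe the settings and not these genes. Without the 18 h and 30 h arrays of experiment 1, 4 genes were lower at 18 h than at 0 h, and Cdc25c, Cdca3, Foxm1 and Racgap1 lost the late call. Other probe sets turned the sign of Bub3 (0.04) and Stmn1 (0.24), and that of Mki67 gave 0. The cause was not tested in any of these cases. Of the late changes, the block altered the calls of Cenpa and Lmnb1 and no other. Over all probe sets, the late comparison called 1836 with the block, 1470 with array weights, 388 without experiment 2 and 173 without experiment 3, against 868. The median percent of the fall to come at 12 h ran from 68.1 to 74.3. Few arrays and dim probe sets limit what could be called.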
